A study of Mus musculus with 12 samples.

Results

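The 3 D-type cyclin genes (Ccnd1, Ccnd2, Ccnd3), the genes of their kinases (Cdk4, Cdk6) and 5 genes of CDK inhibitors (Cdkn1a, Cdkn1b, Cdkn1c, Cdkn2b, Cdkn2c) were followed in bulk RNA sequencing of the mouse line C3H/10T1/2 (10T1/2, written CH310T1/2 in the sample records, established cells of mesenchymal origin) on collagen hydrogels. The genes were taken by symbol, and all 10 were among the 56748 genes of the count table. There were 12 libraries, 4 on each of 3 substrates, col1, col1-ACLP and one with SB431542 added, col1-ACLP+SB. Per the study's methods, the cells were starved overnight in 0.5% FBS, detached with trypsin and held for 1 h in suspension without serum. All cells were then kept for 18 h in 0.5% FBS on 12 kPa hydrogels carrying type I collagen at 0.05 mg/ml. On col1 the collagen was used alone. On col1-ACLP it carried 30 nM of recombinant ACLP (aortic carboxypeptidase-like protein, a secreted protein that binds collagen). On col1-ACLP+SB the same 30 nM of ACLP was present together with SB431542 at 5 µM, an inhibitor of the TGFβ receptor kinase ALK5 (TGFβR1). No group received SB431542 on collagen without ACLP, so an effect of the inhibitor on these genes by itself and an effect on the response to ACLP cannot be told apart. All cells are of 1 cell line, so the replicates are not separate animals.

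D-type cyclins are the cyclins that growth factors and adhesion to matrix control in G1. They bind CDK4 or CDK6, and the complexes phosphorylate the retinoblastoma protein, which frees E2F factors to switch on cyclin E, cyclin A and the genes of DNA replication. Inhibitors of the INK4 family (p15 from Cdkn2b, p18 from Cdkn2c) bind CDK4 and CDK6 directly, whereas those of the CIP/KIP family (p21 from Cdkn1a, p27 from Cdkn1b, p57 from Cdkn1c) act on CDK2 complexes and also help cyclin D and its kinase to assemble. Much of this control acts on protein stability and location, which counts of RNA do not measure.

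Total counts ran from 29246154 to 52201922 per library. Counting error is therefore small for the 8 genes with 794 or more counts in every library, and large for Cdkn1c and Cdkn2b. In the principal components of log2 CPM (counts scaled to the library total with TMM factors), col1 replicate 2 lay apart at -86.7 on PC1, with the other col1 libraries from -11.1 to -8.97, and calls that depend on it are named with their values without it. The 10 mesenchymal markers summed to 33989 CPM or more in every library, the 8 epithelial markers to at most 5.04 CPM and the 8 skeletal muscle markers to at most 3.90 CPM, with Epcam and Myod1 at 0 throughout. The 8 immune markers summed to between 10.0 and 11.2 CPM on collagen alone, 6.31 and 10.3 CPM on col1-ACLP and 7.81 and 12.8 CPM on col1-ACLP+SB. Most of that sum was Cd68, a lysosomal gene that was lower on col1-ACLP (log2 fold change -0.49, edgeR adjusted p = 0.0284), and Ptprc, the marker shared by leukocytes, was at 0 in all 8 libraries with ACLP. Lyz2 was at 0.966 ± 0.393, 0.916 ± 0.363 and 1.16 ± 0.789 CPM on the 3 substrates and Csf1r at 0.116 ± 0.232, 0.174 ± 0.205 and 0.437 ± 0.361 CPM, and neither passed the test in any contrast. The 8 endothelial markers summed to between 7.73 and 13.1 CPM on collagen alone, 21.2 and 23.2 CPM on col1-ACLP and 13.5 and 16.4 CPM on col1-ACLP+SB. Erg made most of this difference, with 2.93 ± 0.661, 11.6 ± 1.36 and 8.48 ± 1.92 CPM in the 3 groups (log2 fold change 1.98 on col1-ACLP, edgeR adjusted p = 6.67e-09), and Tek was at 6.45 ± 1.45, 8.87 ± 1.02 and 4.90 ± 0.925 CPM. Vwf was at 0.921 ± 0.566, 1.47 ± 0.389 and 0.903 ± 0.386 CPM, and the other 5 (Pecam1, Cdh5, Kdr, Tie1 and Emcn) had at most 16 counts in any library. The part of these low levels in the results below was not tested. In bulk samples, fewer cells that express a gene and less RNA per cell cannot be told apart.

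Per kilobase of gene length, the CIP/KIP inhibitor Cdkn1a and the kinase Cdk4 had the highest levels of the 10 genes on col1. Cdkn1a was at 128 FPKM (mean of 4 libraries), Cdk4 at 92.2 FPKM and Ccnd1 at 43.4 FPKM, and the ranges of these genes did not overlap. Below them came Cdkn1b at 22.7 FPKM, Ccnd2 at 15.8 FPKM, Cdkn2c at 13 FPKM, Ccnd3 at 9.31 FPKM and Cdk6 at 2.95 FPKM. Neighbours in this order did not overlap either, although Ccnd2 (15.5 to 16.1 FPKM) and Cdkn2c (12.0 to 15.3 FPKM) were close. Cdkn2b, at 0.360 FPKM, and Cdkn1c, at 0.0203 FPKM, did overlap each other. Of the D cyclin FPKM on col1, Ccnd1 made 63.3%, Ccnd2 23.1% and Ccnd3 13.6%. Cdk4 made 96.9% of the FPKM of both kinases, and Cdkn1a made 84.9% of the CIP/KIP FPKM. These levels divide CPM by the deposited length of each gene (4709 bases for Ccnd1, 9409 for Ccnd2, 8775 for Ccnd3, 3249 for Cdk4 and 13989 for Cdk6). The lengths of the transcripts expressed were not measured, so the order and the shares depend on the deposited lengths. Before this division, Ccnd1 was at 205, Ccnd2 at 149, Ccnd3 at 81.7, Cdk4 at 299 and Cdk6 at 41.3 CPM on col1.

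**Figure D1:**
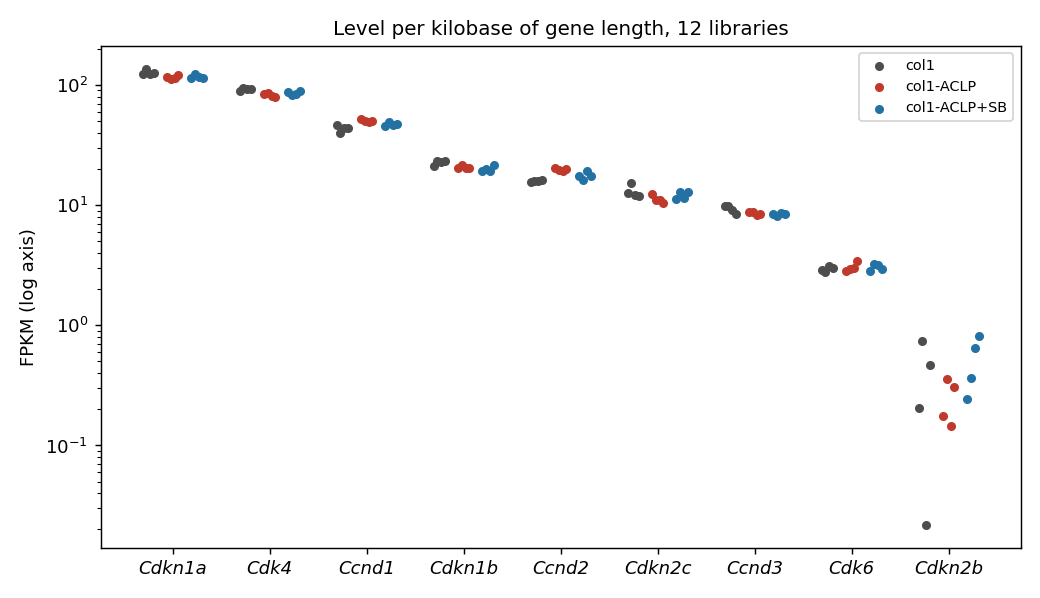
FPKM on a log axis for 9 of the genes in the 12 libraries, each point 1 library, coloured by substrate and ordered by the mean on col1. Cdkn1a and Cdk4 lie highest and Cdkn2b, with 1 to 47 counts per library, lies lowest and is the most scattered; Cdkn1c is left out because several of its libraries are at 0.

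Collagen-bound ACLP was compared with collagen alone to ask how the expression of these G1 regulators differs when ACLP is part of the matrix. Ccnd1 and Ccnd2 were higher on col1-ACLP, and Cdk4 and Cdkn1a were lower, so that 2 of 9 tested members rose and 2 fell, where 9.52% and 8.41% of all 16465 tested genes did (called at an adjusted p under 0.05). The call of Cdkn1a was lost in 8 of 16 alternative fits, and those of Ccnd1, Ccnd2 and Cdk4 were kept in all 16. The differences were small. Ccnd2 was 25.4% and Ccnd1 16.3% higher, and Cdk4 fell by 11.0% and Cdkn1a by 8.69%, and none of the 4 passed the study's threshold of 0.58 on the log2 scale, which 2.61% of all genes passed upward and 2.36% downward. The share of genes called in either direction was 17.9% of all tested and 27.3% among genes with a mean of at least 10 CPM, as 8 of the 9 had. The median log2 fold change of the 9 was -0.13, and that of all tested genes was -0.0099. The third D cyclin (Ccnd3), Cdk6, Cdkn1b, Cdkn2b and Cdkn2c did not pass the test.

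Ccnd2 (ENSMUSG00000000184, chromosome 6 from 127102125 to 127129156, minus strand, GRCm39) encodes cyclin D2. Its 4 libraries on col1 had 145, 148, 149 and 152 CPM, those on col1-ACLP 190.2, 185, 182 and 188 CPM, and those on col1-ACLP+SB 164, 151, 180 and 166 CPM. The 4 col1-ACLP libraries lay above all 8 others, whereas the last group reached down into the range of col1 through its replicate 2. From a mean of 149 ± 2.67 CPM on collagen alone, Ccnd2 reached 186 ± 3.48 CPM on col1-ACLP (SD, n = 4), a log2 fold change of 0.33 (standard error 0.0509, edgeR adjusted p = 3.05e-05). Without col1 replicate 2 the log2 fold change was 0.33.

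Ccnd1 (ENSMUSG00000070348, chromosome 7 from 144483668 to 144493662, minus strand) encodes cyclin D1, a well known target of integrin and growth factor signals in fibroblasts. It was at 220.4, 188, 205 and 205 CPM on collagen alone, at 246, 236, 233 and 237 CPM on col1-ACLP and at 217, 231, 221 and 223 CPM on col1-ACLP+SB. The col1-ACLP libraries again lay above all others, as 10.9% of all tested genes did relative to col1 (and 10.3% below it), and the lowest of the 12 was col1 replicate 2. The log2 fold change between col1-ACLP and col1 was 0.22 (standard error 0.0492, edgeR adjusted p = 0.00208), and 0.18 with an adjusted p of 0.0115 without col1 replicate 2. A gene on the other strand, LTO1, shares 2315 exon bases with Ccnd1 and had 10.6% as many counts; its own log2 fold change was 0.29 (edgeR adjusted p = 0.0384), and its part in the count of Ccnd1 was not tested, since the strand setting of the counting is not given in the sources used here.

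Ccnd3 (ENSMUSG00000034165, chromosome 17 from 47815976 to 47910616, plus strand) encodes cyclin D3. It had 86.9, 85.6, 79.6 and 74.7 CPM on collagen alone, 77.3, 77.1, 72.0 and 74.8 CPM on col1-ACLP and 74.4, 71.1, 75 and 74.7 CPM on col1-ACLP+SB. Its estimate lay on the other side of 0 from those of Ccnd1 and Ccnd2, at -0.12 on the log2 scale with a 95% interval from -0.238 to 0.00274 (edgeR adjusted p = 0.189), and the groups overlapped. As a description, its share of the D cyclin FPKM was 12.5 to 14.9% on col1, 10.6 to 11.2% on col1-ACLP and 11.1 to 11.8% on col1-ACLP+SB. Bysl, on the other strand, shares 369 exon bases with Ccnd3 and had 34.1% as many counts (log2 fold change 0.27, edgeR adjusted p = 0.0693).

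**Figure D2:**
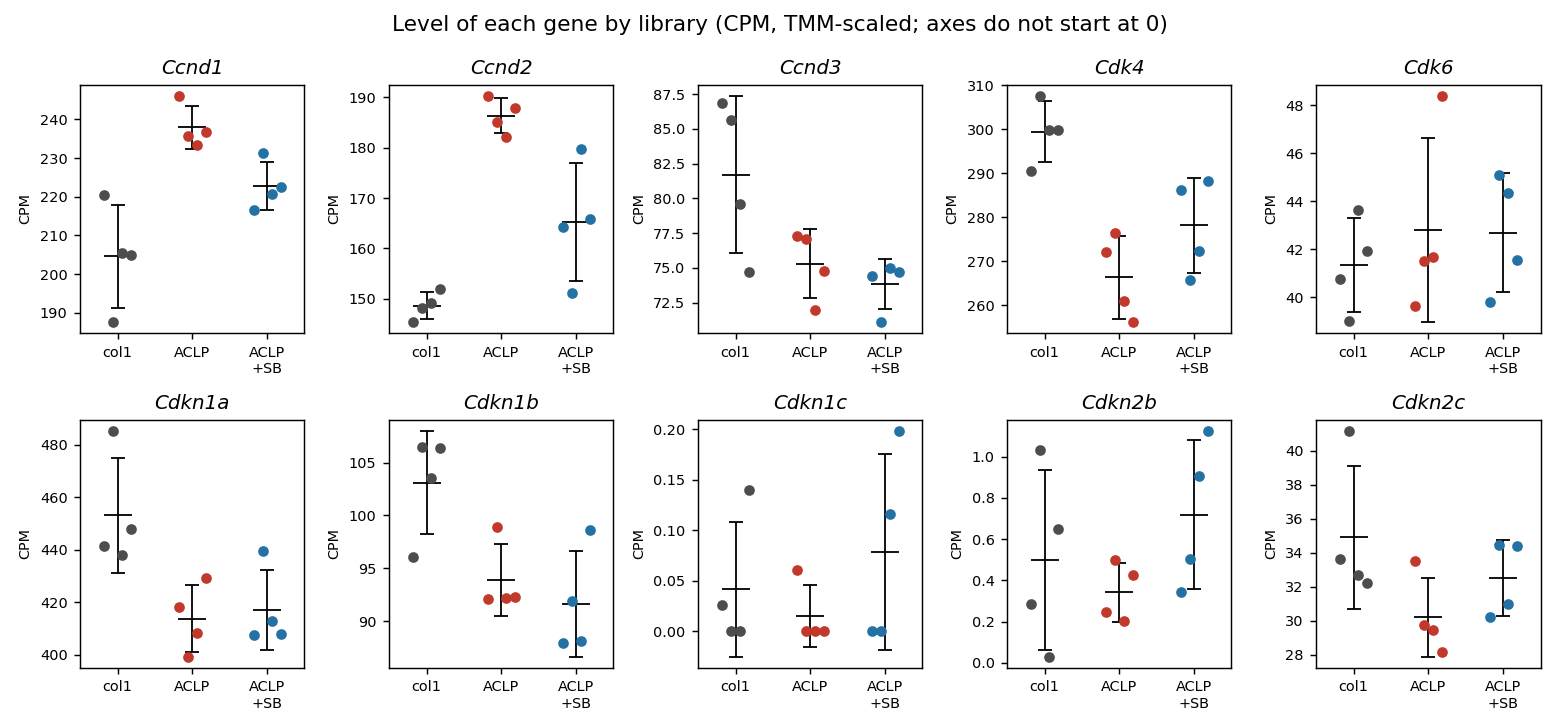
CPM of each of the 10 genes by substrate, each point 1 library (replicates 1 to 4 from left to right), with the mean and SD of 4 libraries as bars; the axes do not start at 0. Ccnd1 and Ccnd2 are above all col1 libraries on col1-ACLP, Cdk4 and Cdkn1a are below them, and Cdkn1c and Cdkn2b are near 0 on every substrate.

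Of the kinases, Cdk4 was lower on col1-ACLP and Cdk6 did not pass the test. Cdk4 (ENSMUSG00000006728, chromosome 10 from 126899403 to 126903789, plus strand) was the kinase gene with the higher RNA level, by CPM and per length. It had 291, 307, 299.8 and 299.9 CPM on collagen alone, 272, 276, 261 and 256 CPM on col1-ACLP and 286, 266, 272 and 288 CPM on col1-ACLP+SB. All 8 libraries with ACLP, with or without SB431542, were below the 4 col1 libraries. The log2 fold change on col1-ACLP was -0.17 (standard error 0.0449, edgeR adjusted p = 0.00858), and -0.15 with an adjusted p of 0.0301 without col1 replicate 2. Tspan31, on the other strand, shares 646 exon bases with Cdk4 and had 31.0% as many counts, with a log2 fold change of 0.045 (edgeR adjusted p = 0.669). Cdk6 (ENSMUSG00000040274, chromosome 5 from 3391485 to 3581008, plus strand), the other kinase of D cyclins, was at 39 to 43.6 CPM on collagen alone, 39.7 to 48.4 CPM on col1-ACLP and 39.8 to 45.1 CPM on col1-ACLP+SB. Its groups overlapped, and the 95% interval of the log2 fold change on col1-ACLP ran from -0.102 to 0.202.

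RefSeq promoter windows (GRCm38.p6, 250 bases before to 50 after a start) were on hand for 7 of the 10 genes, in 10 windows, and not for Ccnd1, Ccnd2 and Cdkn1c. Those of the 2 members that fell are shown. In the Cdk4 window (chr10:127063285-127063584, plus strand) the capitals mark E-boxes (CACGTG, the site that MYC and its relatives bind) and SP1 boxes (GGGCGG on either strand, here CCGCCC).
Cdk4: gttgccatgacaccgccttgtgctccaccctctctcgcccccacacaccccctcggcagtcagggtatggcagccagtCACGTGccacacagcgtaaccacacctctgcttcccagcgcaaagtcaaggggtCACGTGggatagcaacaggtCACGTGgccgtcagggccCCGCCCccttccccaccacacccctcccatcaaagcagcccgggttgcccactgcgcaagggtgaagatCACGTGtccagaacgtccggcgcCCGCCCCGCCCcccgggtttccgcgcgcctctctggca
It held 4 E-boxes, at 172, 118, 98 and 11 bases before the start, and 3 SP1 boxes, the last 2 sharing 1 base. Of all 32851 windows, 7.15% held an E-box and 0.0244% (8 windows) held 4 or more, and 35.7% held an SP1 box. Such a match of letters is a description and not a measured site. Myc itself was at 86.3 ± 6.42 CPM on collagen alone, with 90.5 ± 11.0 CPM on col1-ACLP and 87.2 ± 9.72 CPM when SB431542 was added (log2 fold change 0.067 on col1-ACLP, edgeR adjusted p = 0.659).

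Cdkn1a (ENSMUSG00000023067, chromosome 17 from 29309950 to 29319701, plus strand) encodes p21, the inhibitor that p53 and TGFβ signalling are both known to induce. It had 441, 485, 438 and 448 CPM on collagen alone, 418, 399, 408 and 429 CPM on col1-ACLP and 408, 439, 413 and 408 CPM on col1-ACLP+SB. All col1-ACLP libraries were below all col1 libraries, by a gap of 429 against 438 CPM. The log2 fold change was -0.13 (standard error 0.0449, edgeR adjusted p = 0.0434). This call was near the threshold. Without col1 replicate 2, which had the highest level of the 12, it was lost at a log2 fold change of -0.096 (adjusted p = 0.177), and it was lost in 8 of 16 alternatives in all, with adjusted p from 0.00283 to 0.177. The promoter windows of 2 Cdkn1a starts are printed with matches in capitals. These are SMAD boxes (CAGAC on either strand, here GTCTG), SP1 boxes and a match to the p53 response element. The p53 match needed 2 half-sites of the letters RRRCWWGYYY (R is A or G, W is A or T, Y is C or T), with a spacer allowed. The spacer between the half-sites is also in capitals.
Cdkn1a, window 1, chr17:29090729-29091028, plus strand: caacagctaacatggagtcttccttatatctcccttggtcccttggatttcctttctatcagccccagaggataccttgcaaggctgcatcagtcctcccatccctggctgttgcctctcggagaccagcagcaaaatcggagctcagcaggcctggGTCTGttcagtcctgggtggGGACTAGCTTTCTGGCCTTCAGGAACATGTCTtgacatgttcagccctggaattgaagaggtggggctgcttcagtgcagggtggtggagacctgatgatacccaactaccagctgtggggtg
Cdkn1a, window 2, chr17:29093519-29093818, plus strand: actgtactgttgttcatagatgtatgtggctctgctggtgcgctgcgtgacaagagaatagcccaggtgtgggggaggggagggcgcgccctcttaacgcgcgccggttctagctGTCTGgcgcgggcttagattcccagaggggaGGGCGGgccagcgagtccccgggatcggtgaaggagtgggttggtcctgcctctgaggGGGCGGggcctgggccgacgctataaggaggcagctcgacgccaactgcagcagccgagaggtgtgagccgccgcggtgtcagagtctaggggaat
Window 1 held the p53 match, whose first base is 73 bases before the start, and 1 SMAD box, and window 2 held 2 SP1 boxes and 1 SMAD box. The half-sites of the p53 match are GGACTAGCTT and GAACATGTCT. The bases that directly follow, tgacatgttc, miss the half-site letters only at the first base, so a pair without a spacer was not matched there. A p53 element was matched in 24 of all windows (0.0731%) and a SMAD box in 49.6%. No AP-1 site (TGANTCA, in 7.81% of all windows) and no E2F core (GCGNGAA, in 8.91%) was matched in the windows of Cdk4 and Cdkn1a, on either strand.

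The other inhibitors did not pass the test. Cdkn1b (ENSMUSG00000003031, chromosome 6 from 134897364 to 134902476, plus strand), which encodes p27, had 96.1, 107, 104 and 106 CPM on collagen alone, against 92.1, 98.9, 92.2 and 92.3 CPM on col1-ACLP and 87.9, 91.9, 88.1 and 98.6 CPM on col1-ACLP+SB. Its highest col1-ACLP library was above its lowest col1 library, and the log2 fold change of -0.14 had a 95% interval from -0.250 to -0.0207 (edgeR adjusted p = 0.10). Cdkn2c (ENSMUSG00000028551, chromosome 4 from 109518073 to 109524386, minus strand), which encodes the INK4 inhibitor p18, had 33.6, 41.2, 32.7 and 32.2 CPM on collagen alone, against 33.5, 29.7, 29.4 and 28.1 CPM on col1-ACLP and 30.2, 34.5, 31.0 and 34.4 CPM on col1-ACLP+SB. Between col1-ACLP and col1 the log2 fold change was -0.21 (edgeR adjusted p = 0.109), and -0.12 without col1 replicate 2, whose level of 41.2 CPM stood above the rest of the series. Cdkn2d, the gene of the INK4 inhibitor p19, is no member and was at 9.17 ± 2.41 CPM on collagen alone, with 9.20 ± 1.27 CPM on col1-ACLP.

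The remaining INK4 and CIP/KIP genes were close to undetected. Cdkn2b (ENSMUSG00000073802, chromosome 4 from 89224536 to 89229276, minus strand), which encodes p15 and is a known target of TGFβ signalling in other cells, had 11, 39, 1 and 28 counts on col1, 8, 18, 6 and 12 counts on col1-ACLP and 12, 15, 47 and 34 counts on col1-ACLP+SB. The groups overlapped throughout, and the 95% interval of the log2 fold change between col1-ACLP and col1 ran from -2.04 to 0.941, and libraries of the same group differed widely, from 1 to 39 counts on col1. Cdkn1c (ENSMUSG00000037664, chromosome 7 from 143012076 to 143014787, minus strand), which encodes p57, had 1, 0, 0 and 6 counts on col1, 2, 0, 0 and 0 on col1-ACLP and 0, 0, 6 and 6 on col1-ACLP+SB. It did not pass the filter on low counts and was not tested. In the libraries at 0, a count of 0 allows up to 3 counts, which is between 0.0794 and 0.106 CPM in those libraries, and this covers counting error only.

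SB431542 was used to ask how much of the difference is present when ALK5 is inhibited. Between col1-ACLP+SB and col1, none of the 9 tested members passed the edgeR test in either direction, where 9.13% of all tested genes did and 14.2% of those with a mean of at least 10 CPM. An unadjusted p under 0.05 was found for 6 of the 9 members and 19.9% of all genes, against 6 members and 28.3% of all genes between col1-ACLP and col1. The estimates of these 6 were 0.12 for Ccnd1, 0.15 for Ccnd2, -0.15 for Ccnd3, -0.11 for Cdk4, -0.12 for Cdkn1a and -0.17 for Cdkn1b on the log2 scale, with edgeR adjusted p from 0.0538 to 0.167. Only Cdk4 had groups that did not overlap, as 6.32% of all genes had in its direction. DESeq2 called Ccnd2 higher (adjusted p = 0.0276) and Cdkn1a and Cdkn1b lower (adjusted p = 0.0487 and 0.0211), and limma-voom called Ccnd2 and Cdkn1b (adjusted p = 0.0384 and 0.0333), so the count of 0 depends on the tool. Without col1-ACLP+SB replicate 2, edgeR called Ccnd2 higher (adjusted p = 0.0110) and Cdkn1a lower (adjusted p = 0.0471); Cdkn1b was called without col1 replicate 1 (adjusted p = 0.0331) or col1-ACLP+SB replicate 4 (adjusted p = 0.0290).

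The difference between col1-ACLP+SB and col1-ACLP was tested directly. No member passed (0 of 9, where 1.48% of all genes did, 0.571% higher and 0.905% lower), and 1 member had an unadjusted p under 0.05, where 12.8% of all genes had. That member was Ccnd2, whose level with SB431542 was 165 ± 11.7 CPM (SD, n = 4) against 186 ± 3.48 CPM without it. Its log2 fold change was -0.17 with a 95% interval from -0.278 to -0.0684 (edgeR adjusted p = 0.0919). DESeq2 gave an adjusted p of 0.0208, and without col1-ACLP+SB replicate 3, the highest library of its group, edgeR gave 0.0288. For Ccnd1 the log2 fold change was -0.095 with an interval from -0.197 to 0.00634. Ccnd1 and Ccnd2 were lower in all 4 libraries with SB431542 than in all 4 without it, as 4.52% of all genes were. For Cdkn1a the interval ran from -0.0813 to 0.104, for Cdkn1b from -0.151 to 0.0790 and for Cdk4 from -0.0305 to 0.155, so a change of these genes by SB431542 beyond about these sizes would lie outside the intervals. A call against col1 that is present on col1-ACLP and missing on col1-ACLP+SB is therefore not by itself a difference between these 2 groups.

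**Figure D3:**
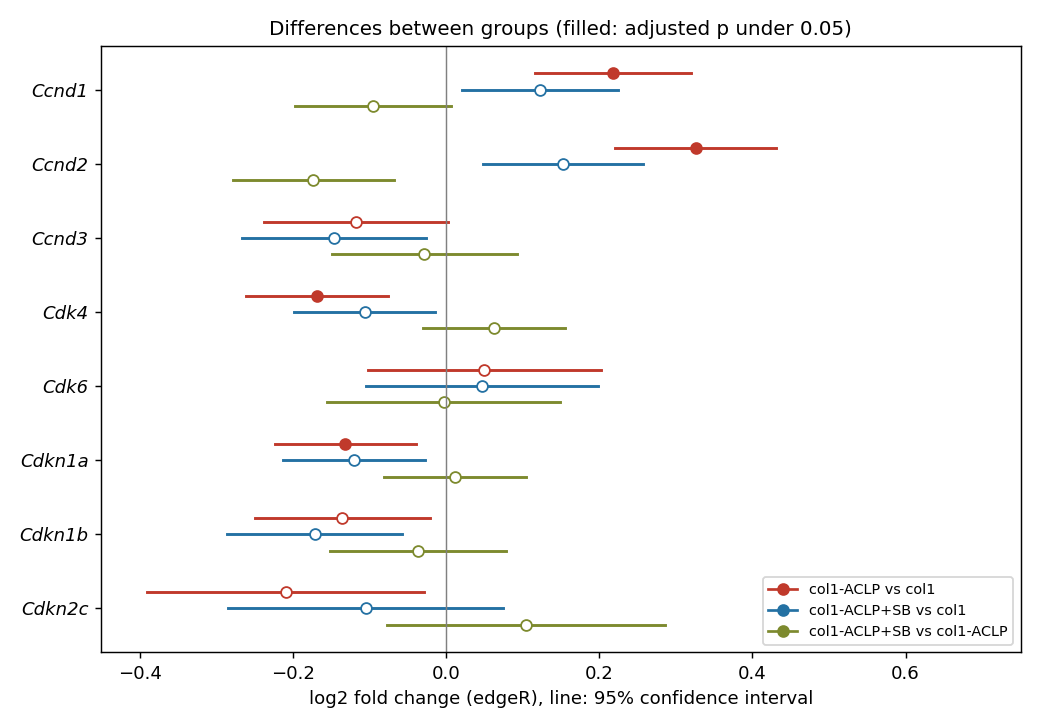
Log2 fold change (edgeR) of 8 tested genes in 3 contrasts, with 95% confidence intervals as lines and filled points where the adjusted p is under 0.05. Filled points appear for Ccnd1, Ccnd2, Cdk4 and Cdkn1a between col1-ACLP and col1 and nowhere else; Cdkn2b is left out because its interval, from -2.04 to 0.941 in that contrast, is too wide for the axis.

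The balance of inhibitor to cyclin RNA was followed within each library, as a description with no test, since its parts are the same genes. The percentages also depend on the deposited gene lengths. The summed FPKM of Cdkn1a, Cdkn1b and Cdkn1c was 201 to 245% of the summed D cyclin FPKM on col1, 170 to 179% on col1-ACLP and 182 to 196% on col1-ACLP+SB. The 3 groups did not overlap, with col1-ACLP+SB between the others, and the highest value of 245% was that of col1 replicate 2. The FPKM of Cdk4 and Cdk6 was 128 to 149% of the D cyclin FPKM on col1, 105 to 112% on col1-ACLP and 116 to 126% on col1-ACLP+SB, in the same order and again without overlap. Within the CIP/KIP family the shares were close: Cdkn1a was 84.9 ± 0.606%, 84.9 ± 0.801% and 85.3 ± 0.855% of the CIP/KIP FPKM in the 3 groups (SD, n = 4).

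**Figure D4:**
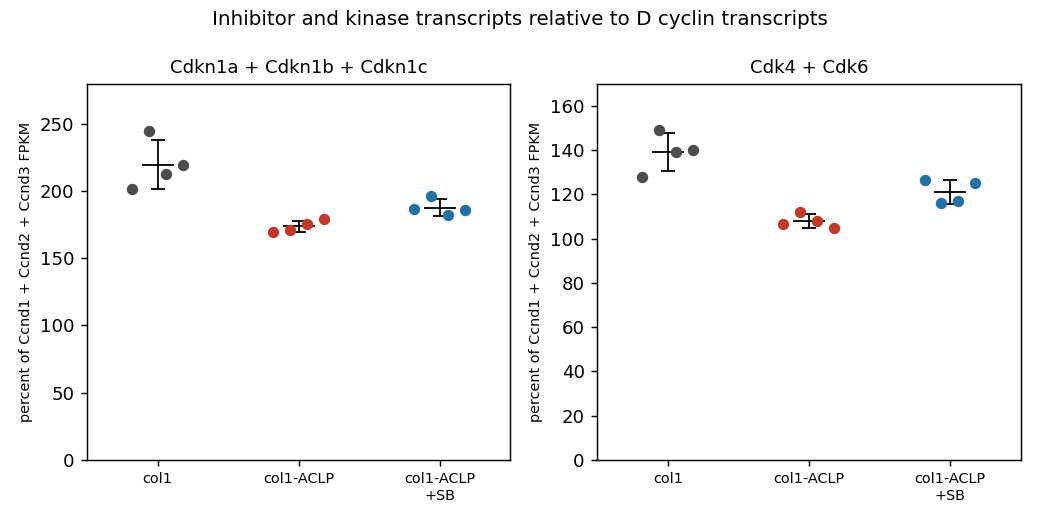
FPKM of the CIP/KIP inhibitor genes (left) and of Cdk4 and Cdk6 (right) as a percent of the summed FPKM of Ccnd1, Ccnd2 and Ccnd3, each point 1 library, with the mean and SD of 4. In both panels col1 is highest, col1-ACLP is lowest and col1-ACLP+SB lies between them.

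Genes that act around cyclin D and its inhibitors were counted in lists written with earlier results of these data known, and the counts are read against the 9.52% higher and 8.41% lower of all genes. Downstream of the kinases, 3 of 5 genes of cyclin E, cyclin A and CDK2 were higher on col1-ACLP and none lower, with a median log2 fold change of 0.53. Ccna2 (cyclin A2) went from 7.82 ± 1.90 to 13.2 ± 0.794 CPM (log2 fold change 0.76, edgeR adjusted p = 0.000471), and Ccne1 and Ccne2 (cyclins E1 and E2) had log2 fold changes of 0.75 and 0.53 (adjusted p = 0.0223 and 0.0168). Of 15 E2F target genes of DNA replication, 10 were higher and none lower, with a median of 0.42. Mcm2 (0.62), Mcm5 (0.70), Mcm4 (0.42) and Mcm3 (0.50), which encode subunits of the replicative helicase, had the smallest p-values. Of 17 RB and E2F proteins, 3 were higher (E2f7 at 1.00, E2f2 at 1.39 and Lin9 at 0.41 on the log2 scale), and E2f1 (0.18, edgeR adjusted p = 0.0936) and Rb1 (0.18, adjusted p = 0.177) did not pass. E2f7 and E2f2 were low, at 2.19 ± 1.10 and 0.619 ± 0.402 CPM on col1. Without col1 replicate 2, E2f2 (1.15, adjusted p = 0.0782) and Lin9 (0.31, adjusted p = 0.153) were no longer called and Rbl1 was (0.38, adjusted p = 0.0433), and the E2F target genes of replication held 8 higher calls.

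Targets of p53 and FOXO factors, mitogen-induced regulators and genes of protein turnover were counted in the same way. Of 15 p53 target genes, 3 were higher on col1-ACLP and 5 lower, with a median log2 fold change of -0.11. Sesn1 (-0.65), Trp53inp1 (-0.31) and Eda2r (-0.45) fell, Plk2 rose (0.49), and Mdm2, the target that degrades p53, was at -0.054 (edgeR adjusted p = 0.612). Of 10 FOXO genes and targets, 5 were lower and none higher, with a median of -0.25: the 4 with the smallest p-values were Bcl2l11 (-0.59), Txnip (-0.51), Pik3ip1 (-0.54) and Foxo3 (-0.32). FOXO factors are known to induce Cdkn1b and to hold down Ccnd1 and Ccnd2, and their activity was not measured here. Of 9 tested mitogen-induced regulators of D cyclins, Elk3 was higher (0.23) and Jun (-0.65), Fosl1 (-1.28) and Junb (-0.34) were lower on col1-ACLP, and Mycn did not pass the filter on low counts. Of 14 genes of the turnover of D cyclins and p27, Gsk3b, whose kinase marks cyclin D1 for breakdown, was the 1 called (0.22, higher), and Skp2, the receptor that targets p27, was at -0.12 (edgeR adjusted p = 0.543). None of 3 genes of the CDK-activating kinase and none of 3 other CDK inhibitors (Cdkn2a, Cdkn2d, Cdkn3) passed the edgeR test. Without col1 replicate 2, Junb (-0.23, adjusted p = 0.141) and the p53 target Ei24 (-0.18, adjusted p = 0.0553) were no longer called, and Foxo4 was called lower (-0.25, adjusted p = 0.0190).

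The same lists were counted between col1-ACLP+SB and col1, read against 4.6% higher and 4.54% lower of all genes. The E2F target genes of DNA replication had 5 higher and none lower (median 0.26), among them Mcm5 (0.49), Mcm6 (0.31), Mcm2 (0.34) and Mcm3 (0.33). The RB and E2F proteins had 1 higher (E2f7 at 0.86), and cyclin E, cyclin A and CDK2 had none (median 0.17). The p53 targets had 1 higher (Plk2 at 0.41) and 4 lower, with Sesn1 at -0.41, Trp53inp1 at -0.23 and Eda2r at -0.31. The FOXO list had 5 lower, with Bcl2l11 at -0.39, Irs2 at -0.41, Foxo3 at -0.28 and Txnip at -0.31. Of the CDK-activating kinase genes Mnat1 (0.23), and of the mitogen-induced regulators Jun (-0.39), were called. Without col1 replicate 2, E2f7, Mnat1, Jun, Cdc45, Ei24 and Eda2r did not pass, with adjusted p from 0.0539 to 0.0959 and log2 fold changes of 0.84, 0.22, -0.33, 0.61, -0.19 and -0.31, against 0.86, 0.23, -0.39, 0.75, -0.19 and -0.31 with all libraries. Sesn2 (0.24) and Klf2 (0.40) were then called higher, and the p53 targets had 2 higher and 2 lower. Between col1-ACLP+SB and col1-ACLP, 1 gene of all these lists was called, where 0.905% of all tested genes were called lower and 0.571% higher. It was Mcm4, of the 15 tested E2F target genes, at a log2 fold change of -0.32 (edgeR adjusted p = 0.0253). DESeq2 called 2 E2F target genes lower there, and 1 p53 target and 1 gene of the FOXO list higher. For the other genes a difference between these 2 groups is not shown, and the medians there were -0.35 for cyclin E, cyclin A and CDK2 and -0.17 for the E2F target genes.

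**Figure D5:**
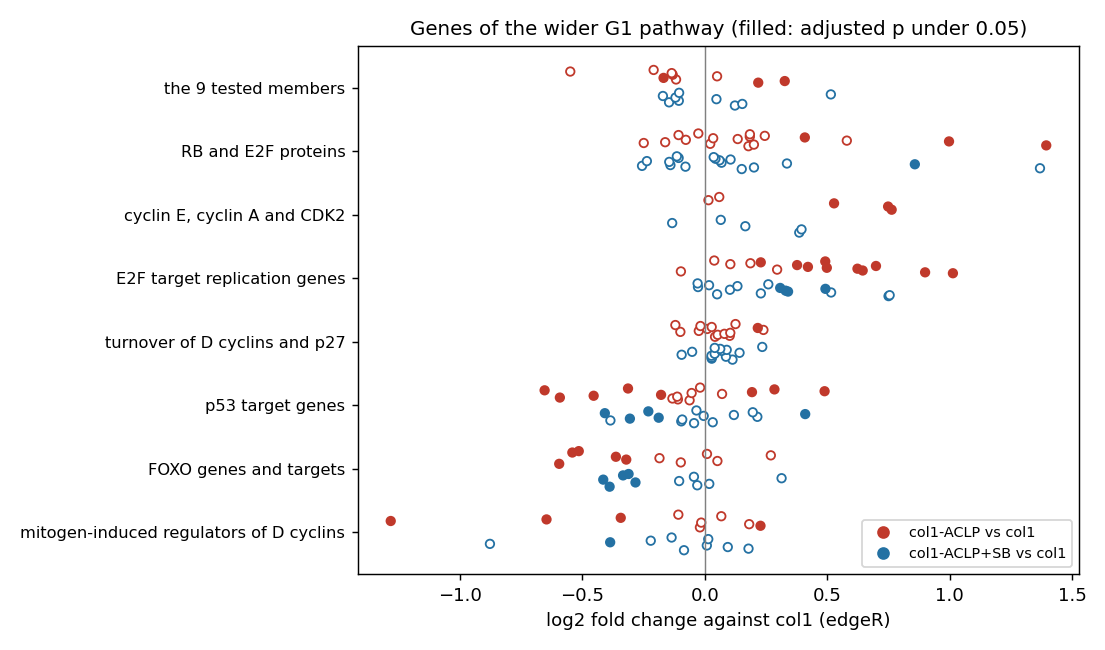
Log2 fold change against col1 (edgeR) of the 9 tested members and of genes in 7 lists, each point 1 gene, for col1-ACLP and col1-ACLP+SB, with filled points where the adjusted p is under 0.05. The members lie between -0.55 and 0.51, where both ends are Cdkn2b with 1 to 47 counts per library, and the others lie between -0.21 and 0.33. Most E2F target genes of replication lie above 0, and all filled points of the FOXO list lie below 0.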

How the data were processed

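Poly(A) RNA was sequenced from 12 libraries (3 substrates with 4 libraries each). Per the study's methods the authors mapped paired-end reads to GRCm39 with HISAT2 and deposited raw counts of reads per gene for 56748 genes, without normalization. The counting tool, its strand setting and its treatment of multiply mapped reads are not given in the sources used here. The sample records name mm10 as the build, but of the most counted genes 990 of 999 overlap their GRCm39 positions and 196 of 991 their GRCm38 positions, so the coordinates are those of GRCm39, as the methods state.

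The test was edgeR 4.0.16 in R 4.3.3: filterByExpr (16465 genes kept, 40283 dropped), TMM factors (0.966 to 1.02), glmQLFit and glmQLFTest on all 12 libraries with 1 mean per group, and Benjamini-Hochberg adjustment over all genes tested. The tests are two-sided. The study used DESeq2, which is an alternative here (1.42.0), as is limma-voom (3.58.1). FPKM was computed from the TMM-scaled CPM and the gene lengths in the deposited table. The common dispersion had a square root of 0.153. No pair of replicates agreed within sampling noise (chi-square per degree of freedom 7.32 to 19.7), so all were kept as separate samples. The study calls the libraries of a group biological replicates, and the labels do not say whether these were separate cultures, so p-values measure the spread between these libraries. Intervals of 95% come from the fit. The procedure was tested on simulated data, where it fell short of the first bar set for the share of changed genes recovered. The bar was then limited to genes of at least 10 CPM, with the procedure unchanged, and was met, so changes in genes of low count can be missed.

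The members and gene lists were chosen with earlier results of these data known. All 10 members are named, and of each pathway list up to 4 called genes with the smallest p in a contrast and any gene not tested. The marker lists served only to check the cell line. Genes most like a member in pattern were to be named only for members called beyond 0.58 on the log2 scale, and no member was. Myc, Cdkn2d, E2f1, Rb1, Mdm2, Skp2, the markers and the list genes whose call depends on col1 replicate 2, and the genes on the other strand of a member, were named after their values had been seen. Alternatives changed the scaling, filter, tool, samples, replicate block or fold threshold. DESeq2 brought its own size factors, and the others changed 1 choice.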

Additional observations from a re-analysis of the deposited data

Results flagged for a closer look

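In 5 of 30 groups of 4 libraries, 1 library stood farther from the others than Dixon's 95% critical value allows, where chance flags about 1 in 20 groups. Cdkn2c on col1 was 41.2 CPM in replicate 2 and 32.2 to 33.6 CPM in the others, and col1 replicate 2 is also the library that stands apart in the principal components. Without it, the log2 fold change of Cdkn2c on col1-ACLP was -0.12 in place of -0.21. Cdkn1b on col1-ACLP was 98.9 CPM in replicate 2 and 92.1 to 92.3 CPM in the others. On col1-ACLP+SB, replicate 2 had 439 CPM of Cdkn1a, with 407.7 to 413 CPM in the others, and 71.1 CPM of Ccnd3, with 74.4 to 75 CPM in the others. Cdkn1c on col1-ACLP was at 0.0611 CPM (2 counts) in replicate 1 and at 0 in the others. With 3 libraries at 0 any count stands apart in this way, and 2 counts are under the 3 that a count of 0 allows, so this value carries no information. Among the 9 members that passed the filter on low counts, 4 of 27 groups were singled out.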

How the results depend on the processing

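Ccnd1 and Ccnd2 stayed higher and Cdk4 lower between col1-ACLP and col1, each past the threshold, in all 16 alternatives that refit the model, with adjusted p of at most 0.0155, 0.000255 and 0.0360. With the study's fold threshold added, 0 members were higher and 0 lower. The count of 2 lower members in that contrast was 4 with library size alone (Cdkn1b and Cdkn2c were added, adjusted p = 0.0222 and 0.0428), 1 with no filter on low counts and 1 with a replicate block, Cdkn1a being lost at adjusted p = 0.112 and 0.0628. With each library left out it was 1 to 2, and Cdkn1a was the call lost, without col1 replicates 1, 2 or 4 or col1-ACLP replicates 1, 2 or 3 (adjusted p = 0.0522, 0.177, 0.0695, 0.0760, 0.115 and 0.111). Correlations of deviations between libraries of the same number ran from -0.0372 to 0.0360, so the numbers did not pair the libraries, and the replicate block changed no other member's call.

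Between col1-ACLP+SB and col1, the count of higher members was 1 with DESeq2 and with limma-voom and 0 to 1 with each library left out. The count of lower members was 2 with library size alone, 2 with DESeq2, 1 with limma-voom and 0 to 1 with each library left out. Between col1-ACLP+SB and col1-ACLP, the count of lower members was 1 with DESeq2 and 0 to 1 with each library left out. Library size alone also moved the median of all tested genes, from -0.0099 to -0.060 between col1-ACLP and col1. It moved that median from 0.0046 to -0.019 between col1-ACLP+SB and col1, and from 0.0049 to 0.031 between col1-ACLP+SB and col1-ACLP. A shift of all genes is thus in each change under that setting. Between col1-ACLP and col1, Ccnd1 went from 0.218 to 0.168, Ccnd2 from 0.326 to 0.276 and Ccnd3 from -0.117 to -0.168, close to the shift of all genes. The cause of the other changes was not tested. For the pathway lists, library size alone added 1 lower RB and E2F protein on col1-ACLP against col1, and 1 p53 target and 1 FOXO gene higher between col1-ACLP+SB and col1-ACLP. DESeq2 added the same numbers in these 3 lists. Mnat1 was not called between col1-ACLP+SB and col1 with library size alone or a replicate block. DESeq2 or limma-voom moved the other lists of few calls by 1 gene.

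Signs reversed only where no call was made. With each library left out, the log2 fold change of Cdk6 ran from -0.011 to 0.086 and that of Cdkn2b from -0.93 to 0.062 between col1-ACLP and col1, and between col1-ACLP+SB and col1-ACLP that of Cdk6 ran from -0.038 to 0.060. For Cdk6 on col1-ACLP against col1 the log2 fold change was -0.0012 with library size alone and -0.011 without col1-ACLP replicate 4. For Cdkn2b in that contrast it was 0.015 with limma-voom and 0.062 without col1 replicate 2. For Cdk6 between col1-ACLP+SB and col1-ACLP it was 0.024 with library size alone, 0.0075 with limma-voom, 0.00060 with only these 2 groups fitted, and 0.060, 0.029 and 0.0093 without col1-ACLP replicate 4, col1-ACLP+SB replicate 1 and col1-ACLP+SB replicate 4. For Cdkn1a in that contrast it was -0.0056 without col1-ACLP replicate 2 and -0.015 without col1-ACLP+SB replicate 2. Cdkn1c and Cdkn2b had at most 47 counts in any library, and the interval of Cdkn2b also holds a wide spread between libraries of the same group.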
